A study of Mus musculus with 6 samples.

Results

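The 10 genes described here encode receptors and ligands through which melanocytes receive growth and pigment signals. They were chosen by symbol from the deposited count matrix: the receptor genes Mc1r, Kit, Ednrb, Erbb3, Egfr and Met and the ligand genes Kitl, Edn1, Nrg1 and Hgf. All 10 symbols were found among the 56734 in the table. Poly(A)-selected RNA came from B16-OVA cells, a line of mouse B16 melanoma cells that carries chicken ovalbumin as a model antigen, grown in DMEM with serum. Of the 6 libraries, 3 were labelled WT and 3 Ythdf2-KO, in which the edited gene, Ythdf2, encodes a cytoplasmic protein that binds N6-methyladenosine in mRNA. The sample titles add the tags gNC for WT and gY2 for Ythdf2-KO. Whether the knockout cells are a single clone or a pool, and whether replicates were separate cultures, was not stated, so p-values measure the spread between these libraries, which may be technical.

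As background, melanocytes depend on signals from neighbouring skin cells. MC1R is a receptor coupled to adenylyl cyclase that raises cAMP when it binds alpha-MSH, a peptide cut from the POMC precursor, and that switches pigment cells toward black eumelanin. KIT is a receptor tyrosine kinase needed for survival and migration of melanoblasts, and keratinocytes and fibroblasts supply its ligand, KITL. EDNRB is the endothelin receptor of the melanocyte lineage. ERBB3 binds neuregulins such as NRG1 and signals as a heterodimer with other ERBB receptors, while EGFR binds ligands of the EGF family. MET is the receptor of HGF, a mitogen and motility factor that is mostly made by mesenchymal cells.

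Promoter sequences are shown for Mc1r and Kitl, the 2 members with the smallest adjusted p among those that rose, and for Hgf and Met, the 2 that fell, to show genes that moved in opposite directions side by side. RefSeq windows of GRCm38.p6, from 250 bases before to 50 bases after each annotated start, matched 8 of the 10 genes, all but Erbb3 and Nrg1. The counts were made on GRCm39, so these coordinates do not belong to the counting. The 250 bases before the start are printed 5′ to 3′ on the plus strand, on which all 4 genes lie. Capitals mark matches, on either strand, to the E-box CACGTG, the E-box CATGTG, the cAMP response element TGACGTCA, the AP-1 site TGAGTCA, the GC box GGGCGG or the TATA box TATAAA. Both E-box forms are bound by MITF, the master regulator of pigment cells.
Mc1r, chr8:123406832-123407081: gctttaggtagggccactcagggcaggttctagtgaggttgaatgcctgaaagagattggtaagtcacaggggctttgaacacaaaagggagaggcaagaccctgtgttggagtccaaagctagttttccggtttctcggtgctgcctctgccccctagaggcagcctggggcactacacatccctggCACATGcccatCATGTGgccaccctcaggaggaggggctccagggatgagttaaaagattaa
Kitl, chr10:100015571-100015820: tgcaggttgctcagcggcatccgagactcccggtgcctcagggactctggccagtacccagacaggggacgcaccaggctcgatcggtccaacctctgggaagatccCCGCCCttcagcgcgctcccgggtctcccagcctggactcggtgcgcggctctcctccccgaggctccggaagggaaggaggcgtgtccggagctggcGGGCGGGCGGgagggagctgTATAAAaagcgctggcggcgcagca
Hgf, the first of 2 annotated starts, chr5:16553245-16553494: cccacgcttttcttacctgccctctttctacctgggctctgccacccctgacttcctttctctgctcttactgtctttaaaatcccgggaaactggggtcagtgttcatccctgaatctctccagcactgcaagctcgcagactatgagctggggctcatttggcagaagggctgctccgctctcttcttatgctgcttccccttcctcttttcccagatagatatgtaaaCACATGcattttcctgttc
Met, chr6:17463707-17463956: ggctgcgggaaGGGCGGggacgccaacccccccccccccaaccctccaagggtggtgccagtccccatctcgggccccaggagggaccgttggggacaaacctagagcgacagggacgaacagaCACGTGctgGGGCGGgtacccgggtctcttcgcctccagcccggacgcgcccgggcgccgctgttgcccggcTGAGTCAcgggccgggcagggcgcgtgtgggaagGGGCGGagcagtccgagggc

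The Mc1r window held 2 matches to CATGTG, beginning 62 and 51 bases before the start. Of all 32851 RefSeq windows of 300 bases, 14.2% held at least 1 such match and 2.08% at least 2. The window of the first Hgf start also held 1, and that of the second Hgf start held 0. The motif thus occurred beside a gene that was higher and beside a gene that was lower in Ythdf2-KO. Kitl had 3 GC boxes, 2 of which overlapped, and a TATA box 25 bases before the start. GC boxes were present in 35.7% of windows, with at least 2 in 19.5%, and TATA boxes in 13.6%. Met had 3 GC boxes, 1 CACGTG and 1 AP-1 site, the latter 2 found in 7.15% and 5.20% of windows. No window of the 8 genes held TGACGTCA, which occurred in 1.79% of all windows. These matches describe letters in the windows and are not evidence of binding.

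Each library held 55660473 to 69497273 counts, and a count of 3 equalled 0.0433 to 0.0540 CPM (counts scaled to 1e+06 per library). Levels are CPM scaled by trimmed-mean-of-M-values (TMM) factors, and differences are log2 fold changes of Ythdf2-KO over WT from edgeR's quasi-likelihood test, called at a Benjamini-Hochberg adjusted p under 0.05. The edited gene, Ythdf2, was at 124, 124 and 125 CPM across WT replicates 1 to 3 and 100.02, 100.5 and 104 CPM across Ythdf2-KO replicates 1 to 3. It was 1.23-fold lower (log2 fold change -0.29 ± 0.0265, SE; edgeR adjusted p = 4.08e-13), without overlap, and gene counts show neither the edit nor the protein. The labelled cell type was checked with 10 melanocyte markers, among them Mitf, Sox10, Tyr and Pmel. All 10 were detected in every library, and all 10 were higher in Ythdf2-KO, and their summed level was 242 to 246 CPM across WT and 1444 to 1472 CPM across Ythdf2-KO libraries. Of all 17718 genes tested, 49.9% were called, 24.1% higher and 25.8% lower. In 55.9% the libraries of the genotypes did not overlap. Among the calls, 48.3% were higher in Ythdf2-KO, against 59.2% with upper-quartile scaling.

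Among these receptors and ligands, the melanocortin receptor gene Mc1r rose most, and the ligand gene Kitl rose while the pair Hgf and Met fell. Erbb3, Nrg1 and Egfr also rose, the last 2 from low levels. Kit, Ednrb and Edn1 were at or near 0 counts in every library. Of the 10 genes, 7 had enough counts to be tested. All 7 were called, 5 higher and 2 lower, and in each of the 7 the libraries of the genotypes did not overlap, beside 55.9% of all genes tested. Since 49.9% of all genes tested were called, a call alone says little about these genes, and the sizes are given gene by gene. In bulk RNA, a change in the share of cells that express a gene and a change in its RNA per cell cannot be told apart.

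**Figure D1:**
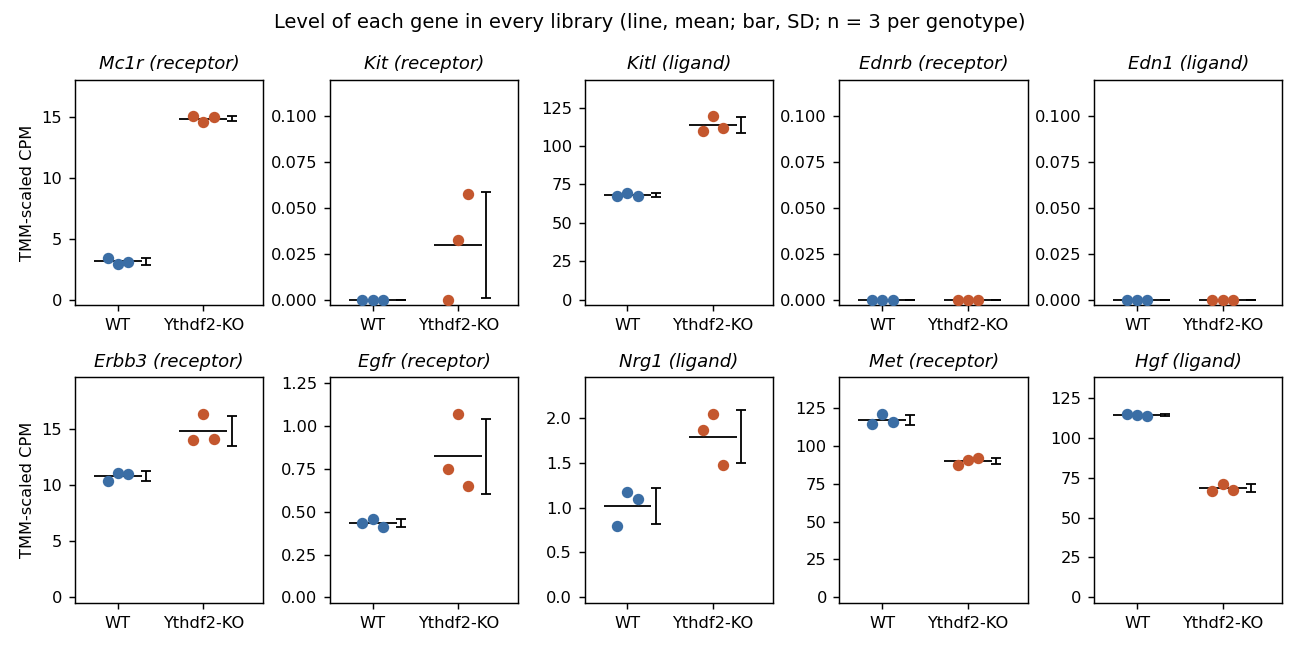
TMM-scaled CPM of the 10 genes (vertical axes, each with its own scale) in the 3 WT and 3 Ythdf2-KO libraries (points), with the mean (line) and SD (bar). Mc1r went from 3.15 to 14.9 CPM, Hgf and Met fell in all 3 Ythdf2-KO libraries, and Ednrb and Edn1 had no count.

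Mc1r stood at 3.47, 2.92 and 3.06 CPM across WT replicates 1 to 3 and 15.1, 14.6 and 14.99 CPM across Ythdf2-KO replicates 1 to 3. Every Ythdf2-KO library was above every WT library, and replicates of a genotype lay close together. The rise was 4.75-fold, from 3.15 ± 0.288 to 14.9 ± 0.23 CPM (SD, n = 3), a log2 fold change of 2.25 ± 0.0877 (SE; edgeR adjusted p = 7.53e-26). The 10 melanocyte markers were higher in the same libraries, and their part in this result was not tested. In GENCODE M21, 653 of the 3638 exon bases of Mc1r overlap the antisense gene Gm38092. Gm38092 had 0 counts in every library, but all 653 of its exon bases lie in this shared stretch. Without a strand setting, reads from the shared bases cannot be told apart. Its 0 counts therefore cannot show that antisense reads were absent.

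Of the other melanocortin receptor genes, Mc3r alone had enough counts to be tested. Mc3r, whose protein is better known from the hypothalamus, where it acts in energy balance, was at 4.25, 4.47 and 3.84 CPM across WT replicates 1 to 3 and 0.0585, 0.0647 and 0.115 CPM across Ythdf2-KO replicates 1 to 3. Mc3r fell 50.97-fold (log2 fold change -5.67 ± 0.256, edgeR adjusted p = 1.93e-23), with 4, 4 and 8 counts left in the Ythdf2-KO libraries. Per kilobase of exon, Mc3r at 1.6 CPM stood above Mc1r at 0.866 CPM in WT, while in Ythdf2-KO the order was inverted, at 0.0303 and 4.10 CPM. In both genotypes the 3 libraries' per-length values of the 2 receptors did not overlap. Mc4r had no count, Mc2r had 0 counts in WT and 4, 2 and 5 in Ythdf2-KO, and Mc5r had 2 to 4 counts in every library.

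The precursor of the receptor's agonist was detected in Ythdf2-KO only at a low level. Pomc, which encodes the precursor of alpha-MSH and ACTH, had 0 counts in all 3 WT libraries and 16, 12 and 20 counts in Ythdf2-KO replicates 1 to 3, or 0.234, 0.194 and 0.289 CPM. With no count in WT, Pomc passed the filter on low counts only through the Ythdf2-KO libraries, so its adjusted p is not separate support. Pomc was at least 15.2-fold higher against a floor of 3 counts over the WT group (edgeR adjusted p = 3.20e-06). Low counts were mostly even in these libraries, so the 2 reads of a pair may have been counted singly, and counts of a few, the floor of 3 counts and this bound may then stand for fewer fragments. Agrp, which encodes an antagonist of the MC3 and MC4 receptors, had 2 to 11 counts per library and was not tested. The agouti gene Asip was not analysed here. Mrap, which encodes an accessory protein of melanocortin receptors, was likewise too low to test.

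Of 25 tested further genes of the melanocortin and cAMP list, 9 were higher and 8 lower, beside 24.1% and 25.8% of all genes tested. Their median log2 difference was -0.0088, against -0.0053 over all genes tested. The count of lower genes was 4 without WT replicate 1, 5 without Ythdf2-KO replicate 1 and 4 with upper-quartile scaling. Among genes of at least 1 CPM, the largest rises were those of Pde4b, Pde4d and Adcy7. The first 2 encode phosphodiesterases that degrade cAMP: Pde4b rose 1.98-fold to 9.26 ± 0.750 CPM and Pde4d 1.88-fold to 39.8 ± 0.787 CPM (SD, n = 3). Adcy7, which encodes an adenylyl cyclase that makes cAMP, rose 1.38-fold. Besides Mc3r, the largest falls were those of Prkacb, a catalytic subunit gene of protein kinase A, and Pde4a, at 1.29- and 1.18-fold. Gnas, the gene of the stimulatory G protein subunit that MC1R acts through, had a log2 fold change of 0.15 ± 0.0208 (SE; edgeR adjusted p = 2.88e-08) and was called higher.

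The KIT pair was uneven: the ligand gene was well expressed and rose, while the receptor gene was almost undetected. Kitl, which encodes stem cell factor, was at 67.5, 69.3 and 67.5 CPM across WT replicates 1 to 3 and 109.5, 119 and 112 CPM across Ythdf2-KO replicates 1 to 3. The groups did not overlap, and Ythdf2-KO replicate 2 was the highest library. Kitl rose 1.67-fold, from 68.1 ± 1.08 to 113 ± 5.16 CPM (SD, n = 3; log2 fold change 0.74 ± 0.0307, SE; edgeR adjusted p = 1.01e-24). Kit had 0 counts in each WT library and 0, 2 and 4 counts in Ythdf2-KO replicates 1 to 3, too few to test. Gene counts do not separate the soluble and membrane-bound forms of KITL.

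Mast cells are another cell type that depends on KIT. The marker calls below stand beside 24.1% higher and 25.8% lower among all genes tested. Of 10 mast cell markers, Cpa3, Mcpt4, Mcpt2, Cma1, Fcer1a and Ms4a2 had no count in any library, and of the 3 tested, none was higher and 1, Tpsab1, was lower. The list summed to 20.4 to 21.4 CPM across WT and 16.6 to 18.8 CPM across Ythdf2-KO libraries, mostly from Gata2 at 16.4 and 16.8 CPM. Keratinocytes supply KITL in skin. Of 10 keratinocyte markers, 3 could be tested, 2 higher and 1 lower, and the list's summed level was 1.02 to 1.33 CPM across WT and 1.46 to 1.57 CPM across Ythdf2-KO libraries. The defining keratins Krt5 and Krt14 had 0 to 4 counts per library. Fibroblasts also supply KITL, and of 9 tested fibroblast markers 6 were higher and 3 lower. The 10 fibroblast markers summed to 6649 to 6810 CPM across WT and 8485 to 8650 CPM across Ythdf2-KO libraries. The part of keratinocyte or fibroblast markers in the Kitl result was not tested. Leukocyte markers summed to 9.32 to 10.97 and 12.7 to 14.8 CPM, with 1 of 3 tested higher and 1 lower. The leukocyte gene Ptprc had 2, 6 and 5 counts in WT and 2, 0 and 74 in Ythdf2-KO, so that Ythdf2-KO replicate 3 stood apart for it. The 7 members called with all libraries were also called without that library, with 5 higher and 2 lower.

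Of 22 tested genes that act with or below KIT, 5 were higher and 13 lower, beside 24.1% and 25.8% of all genes tested. The list's median log2 difference was -0.082, against -0.0053 over all genes tested. The count of lower genes was 8 without WT replicate 1, 8 without Ythdf2-KO replicate 1 and 7 with upper-quartile scaling. Pik3r1, which encodes the regulatory subunit of PI3-kinase that docks on KIT, fell 1.91-fold, from 136 ± 3.34 to 71.4 ± 1.59 CPM (SD, n = 3). Sh2b2, an adaptor gene, and Spred1, which encodes an inhibitor of RAS signaling, fell 1.72- and 1.40-fold. The largest rise was that of Ptpn6, which encodes the phosphatase SHP-1, a negative regulator of KIT, from 1.11 ± 0.247 to 3.85 ± 0.338 CPM, or 3.44-fold. The kinase gene Fyn and the adaptor gene Sh2b3 rose 1.21- and 1.13-fold.

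The endothelin pair was not detected. Ednrb and Edn1 had 0 counts in all 6 libraries, which allows at most 0.0433 to 0.0540 CPM per library, for counting error only. Ednra, the receptor gene better known from vascular smooth muscle, had 18, 12 and 14 counts in WT and 14, 2 and 18 in Ythdf2-KO. Its log2 fold change was -0.48 ± 0.539 (SE; edgeR adjusted p = 0.501), and the groups overlapped. The other ligand genes were as low: Edn2 had 0 to 6 counts and Edn3, the ligand of EDNRB in melanoblast development, 0 to 4. Of 10 markers of endothelial cells, which make most endothelin-1, Emcn and Cldn5 were at 0. Of the 4 tested, 1 was higher and 1 lower, beside 24.1% and 25.8% of all genes tested. The list summed to 2.95 to 3.35 CPM across WT and 2.57 to 3.001 CPM across Ythdf2-KO libraries.

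Genes that process endothelins or act below their receptors were expressed. Of 16 tested, 6 were higher and 5 lower, beside 24.1% and 25.8% of all genes tested. The list's median log2 difference was -0.0077, against -0.0053 over all genes tested. DESeq2 called 3 lower, and restricting the test to genes averaging 5 CPM left 3 higher and 3 lower. Among the protease genes whose products cut endothelin precursors, Furin fell 1.95-fold, from 744 ± 12.8 to 382 ± 9.002 CPM, and Ece1, which encodes the endothelin-converting enzyme, 1.87-fold, from 137 ± 0.983 to 73.1 ± 2.51 CPM (SD, n = 3). Ece2, which encodes a related converting enzyme, did not pass the test (log2 fold change -0.048 ± 0.184, SE; edgeR adjusted p = 0.858), and Pcsk5 was too low to test. Prkcd, a protein kinase C gene, fell 1.13-fold. Plcb4, which encodes a phospholipase C driven by Gq proteins, rose 2.45-fold, from 8.62 ± 0.580 to 21.2 ± 1.01 CPM. Mme, which encodes the endothelin-degrading protease neprilysin, rose 1.92-fold to 1.62 CPM. Rgs2, a gene for a brake on Gq signaling, rose 1.63-fold to 1.21 CPM (edgeR adjusted p = 0.0147), and that call was lost without Ythdf2-KO replicate 2 (edgeR adjusted p = 0.0619) or replicate 3 (edgeR adjusted p = 0.107). Rgs5, named after its values were seen, had 23, 30 and 29 counts in WT and 0, 0 and 12 in Ythdf2-KO, with all its Ythdf2-KO counts in replicate 3. Its log2 fold change was -2.82 with all libraries and -7.79 without that library, and the DESeq2 Wald test did not call it (adjusted p = 0.185).

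The 3 ERBB receptor genes that could be tested, Egfr, Erbb2 and Erbb3, all rose, while the ligand genes Ereg, Areg and Nrg4 fell and Nrg1 and Hbegf rose. Erbb3, whose protein lacks strong kinase activity and signals through partners, was at 10.3, 11.1 and 11.03 CPM across WT replicates 1 to 3 and 13.99, 16.3 and 14.1 CPM across Ythdf2-KO replicates 1 to 3. All 3 Ythdf2-KO libraries were above the WT libraries, with replicate 2 highest. Erbb3 rose 1.37-fold, from 10.8 ± 0.416 to 14.8 ± 1.30 CPM (SD, n = 3; log2 fold change 0.45 ± 0.0718, SE; edgeR adjusted p = 6.63e-07). Erbb2, the preferred partner of ERBB3, rose 1.14-fold, from 43.7 ± 1.38 to 49.99 ± 1.61 CPM (edgeR adjusted p = 2.84e-05). Erbb4 had 0 counts in WT and 2, 0 and 2 in Ythdf2-KO.

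Egfr was expressed at a low level. It had 24, 30 and 28 counts in WT replicates 1 to 3 and 51, 66 and 45 in Ythdf2-KO replicates 1 to 3. The groups did not overlap, but the Ythdf2-KO libraries spread widely, with replicate 2 highest. Egfr rose 1.89-fold, from 0.433 ± 0.0248 to 0.821 ± 0.219 CPM (SD, n = 3; log2 fold change 0.92 ± 0.304, SE; edgeR adjusted p = 0.0102). Without Ythdf2-KO replicate 2 it did not pass (log2 fold change 0.69, edgeR adjusted p = 0.104). Per kilobase of exon, Erbb2 made up 82.6% of the summed level of the 4 ERBB receptor genes in WT and 79.7% in Ythdf2-KO, Erbb3 17.01% and 19.7%, and Egfr 0.374% and 0.599%.

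Nrg1, the ligand gene of ERBB3 and ERBB4, was also low, at 0.792, 1.18 and 1.09 CPM across WT replicates 1 to 3 and 1.86, 2.04 and 1.47 CPM across Ythdf2-KO replicates 1 to 3. The lowest Ythdf2-KO library, replicate 3, was above the highest WT library, replicate 2. Nrg1 rose 1.74-fold (log2 fold change 0.80 ± 0.209, SE; edgeR adjusted p = 0.00119), from a mean of 1.02 ± 0.202 to 1.79 ± 0.290 CPM (SD, n = 3). In GENCODE M21, 442 of its 7880 exon bases overlap Gm26578 on the opposite strand, which was not analysed here. Without a strand setting, reads from the shared bases cannot be told apart. Of the other neuregulin genes, Nrg4, a ligand gene of ERBB4, fell 1.76-fold from 2.46 ± 0.388 CPM. Nrg2 had a log2 fold change of -0.32 ± 0.255 (SE; edgeR adjusted p = 0.319), and Nrg3 had no count.

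The ligand genes of EGFR were dominated by Ereg, which encodes epiregulin, a ligand of EGFR and ERBB4. It was at 262, 259 and 270.3 CPM across WT replicates 1 to 3 and 127, 131 and 122 CPM across Ythdf2-KO replicates 1 to 3. All Ythdf2-KO libraries were far below the WT libraries, and Ereg fell 2.08-fold (log2 fold change -1.06 ± 0.0256, SE; edgeR adjusted p = 5.18e-33). Areg, which encodes the EGFR ligand amphiregulin, fell 1.82-fold, from 8.65 ± 0.654 to 4.73 ± 0.507 CPM (SD, n = 3). Hbegf, which encodes heparin-binding EGF-like growth factor, rose 1.19-fold to 12.4 ± 0.583 CPM. Btc, Egf and Epgn did not pass the test, with log2 fold changes of 0.13 ± 0.0887, 0.21 ± 0.148 and -0.62 ± 0.502 (SE). Tgfa had 2 counts in 1 library and none in the others. Summed per kilobase of exon, the ERBB ligand genes went from 80.2 ± 1.53 to 44.4 ± 0.855 CPM, and the receptor genes from 10.6 ± 0.246 to 12.5 ± 0.136 CPM (SD, n = 3). Ereg made up 79.7% of the ligand sum in WT and 69.1% in Ythdf2-KO.

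**Figure D2:**
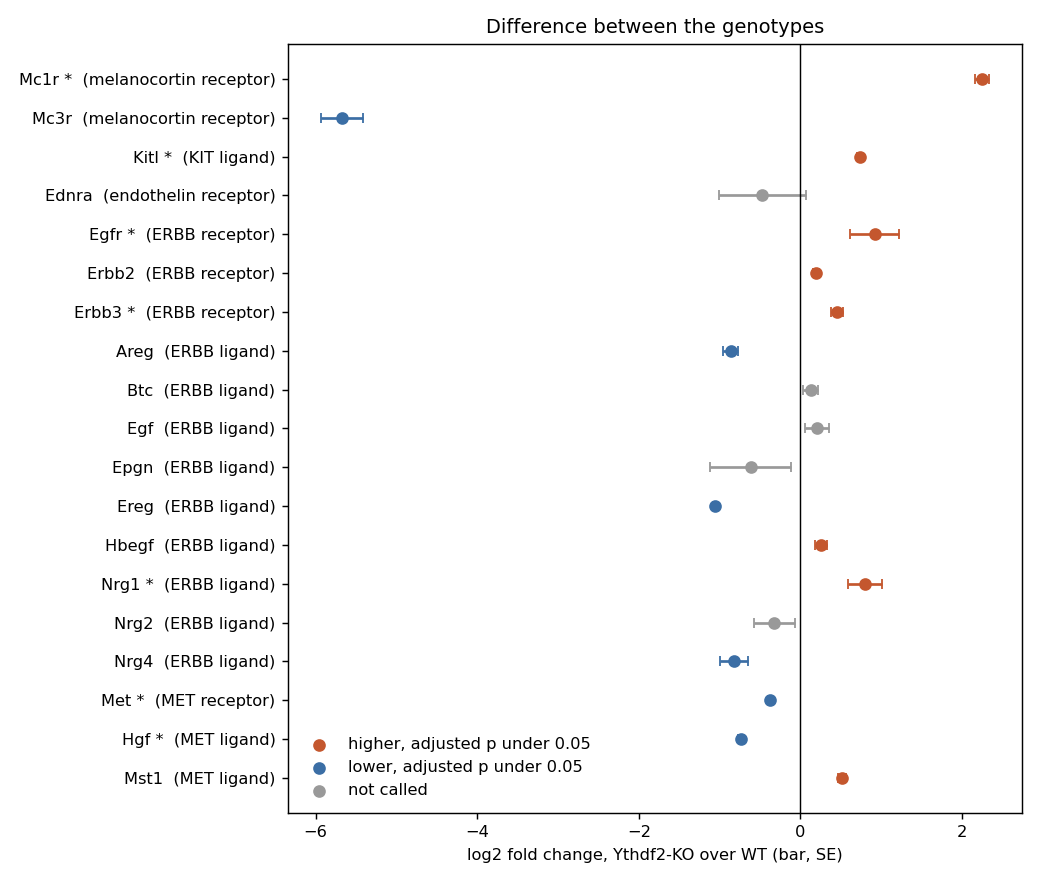
Log2 fold change of Ythdf2-KO over WT (horizontal axis, points with SE bars) for the tested ligand and receptor genes of the 5 families. Asterisks mark the 7 tested genes of the 10 described here. Pomc is left out because it had no count in WT. Mc1r at 2.25 and Mc3r at -5.67 lie farthest to either side, and Egfr, Erbb2 and Erbb3 lie right of 0 while Ereg, Areg and Nrg4 lie left of it.

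Of 23 tested further genes of the ERBB list, 5 were higher and 10 lower, beside 24.1% and 25.8% of all genes tested. The list's median log2 difference was -0.092, against -0.0053 over all genes tested. Lrig1, which encodes a membrane protein that promotes degradation of ERBB receptors and MET, fell 2.0-fold, from 438 ± 7.23 to 219 ± 2.39 CPM (SD, n = 3; edgeR adjusted p = 1.56e-35). Errfi1, which encodes the EGFR inhibitor MIG6, fell 1.84-fold, from 55.5 ± 1.64 to 30.2 ± 0.658 CPM. Of the other regulator genes Lrig2, Lrig3, Rnf41, Cbl and Cblb, Lrig3 rose 1.12-fold (edgeR adjusted p = 0.0207). Cblb fell 1.07-fold (edgeR adjusted p = 0.0282), and Lrig2, Rnf41 and Cbl did not pass the test. The sheddase genes Adam10 and Adam17, whose products release ERBB ligands from the cell surface, had log2 fold changes of -0.34 ± 0.0223 and -0.44 ± 0.0250 (SE), and both were called lower. Bace2, a protease gene known in pigment cells for processing the melanosomal protein PMEL, rose 6.28-fold, from 1.62 ± 0.220 to 10.2 ± 0.767 CPM. Rhbdf1, which encodes an inactive rhomboid that partners ADAM17, rose 1.31-fold, while its paralogue Rhbdf2 fell 1.51-fold, from 16.02 ± 1.00 to 10.6 ± 0.378 CPM (SD, n = 3).

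The MET pair was expressed on both sides, and both genes fell. Met was at 114, 121 and 115 CPM across WT replicates 1 to 3 and 87.4, 90.6 and 91.7 CPM across Ythdf2-KO replicates 1 to 3. The groups did not overlap. Met fell 1.30-fold, from 117 ± 3.44 to 89.9 ± 2.26 CPM (SD, n = 3; log2 fold change -0.38 ± 0.0284, SE; edgeR adjusted p = 1.21e-15). Hgf, its ligand gene, was at 115, 114 and 114 CPM across WT replicates 1 to 3 and 66.4, 71.1 and 67.4 CPM across Ythdf2-KO replicates 1 to 3. The 3 WT libraries were nearly equal and all Ythdf2-KO libraries were well below them. Hgf fell 1.67-fold, from 114 ± 0.590 to 68.3 ± 2.45 CPM (SD, n = 3; log2 fold change -0.74 ± 0.0294, SE; edgeR adjusted p = 1.44e-25).

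Per kilobase of exon, the level of Hgf was 1.86 ± 0.0576 times that of Met in WT and 1.44 ± 0.0464 times in Ythdf2-KO (SD, n = 3). Of 9 tested fibroblast markers, 6 were higher and 3 lower, beside 24.1% and 25.8% of all genes tested. The 10 markers summed to 6649 to 6810 CPM across WT and 8485 to 8650 CPM across Ythdf2-KO libraries. Among them, Dcn fell, with a log2 fold change of -3.55, and Col3a1 rose, with 0.53. Their part in the fall of Hgf was not tested. Mst1, which encodes the HGF-like ligand of the receptor RON, rose 1.43-fold, from 22.6 ± 1.80 to 32.2 ± 0.388 CPM, while the gene of RON, Mst1r, had 0 to 8 counts per library.

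Of 16 tested further genes of the HGF and MET list, 3 were higher and 6 lower, beside 24.1% and 25.8% of all genes tested. The list's median log2 difference was -0.067, against -0.0053 over all genes tested. Ptprj, which encodes a phosphatase that acts on MET, fell 2.52-fold, from 53.01 ± 0.225 to 20.99 ± 0.117 CPM (SD, n = 3). Plat, the gene of tissue plasminogen activator, fell 1.74-fold, and Cd44, which encodes a co-receptor of MET, 1.28-fold from 987 ± 16.2 CPM. Plxnb1, which encodes a semaphorin receptor that associates with MET, rose 3.04-fold, from 4.31 ± 0.542 to 13.1 ± 0.231 CPM. Sema4d, the gene of its ligand, rose 2.93-fold to 1.63 ± 0.286 CPM. The HGF activator genes Hgfac and St14 were low, with 2 to 5 counts per library for Hgfac, and St14 at 27, 0 and 36 counts in Ythdf2-KO did not pass the test.

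Per kilobase of exon, the order of the 7 tested genes differed between the genotypes. In WT it ran from Hgf at 31.8 CPM through Met at 17.2, Kitl at 12.1, Erbb3 at 1.80, Mc1r at 0.866 and Nrg1 at 0.129 to Egfr at 0.0395 CPM, and no 2 neighbours in that order overlapped between libraries. In Ythdf2-KO, Kitl at 20.1 CPM came first, but its libraries overlapped those of Hgf at 19.1 CPM. Met followed at 13.2, then Mc1r at 4.10, above Erbb3 at 2.46, and Nrg1 and Egfr at 0.227 and 0.0750 CPM remained lowest. Lengths are those of all annotated exons together, so the level of a gene that uses few of its annotated exons is understated.

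**Figure D3:**
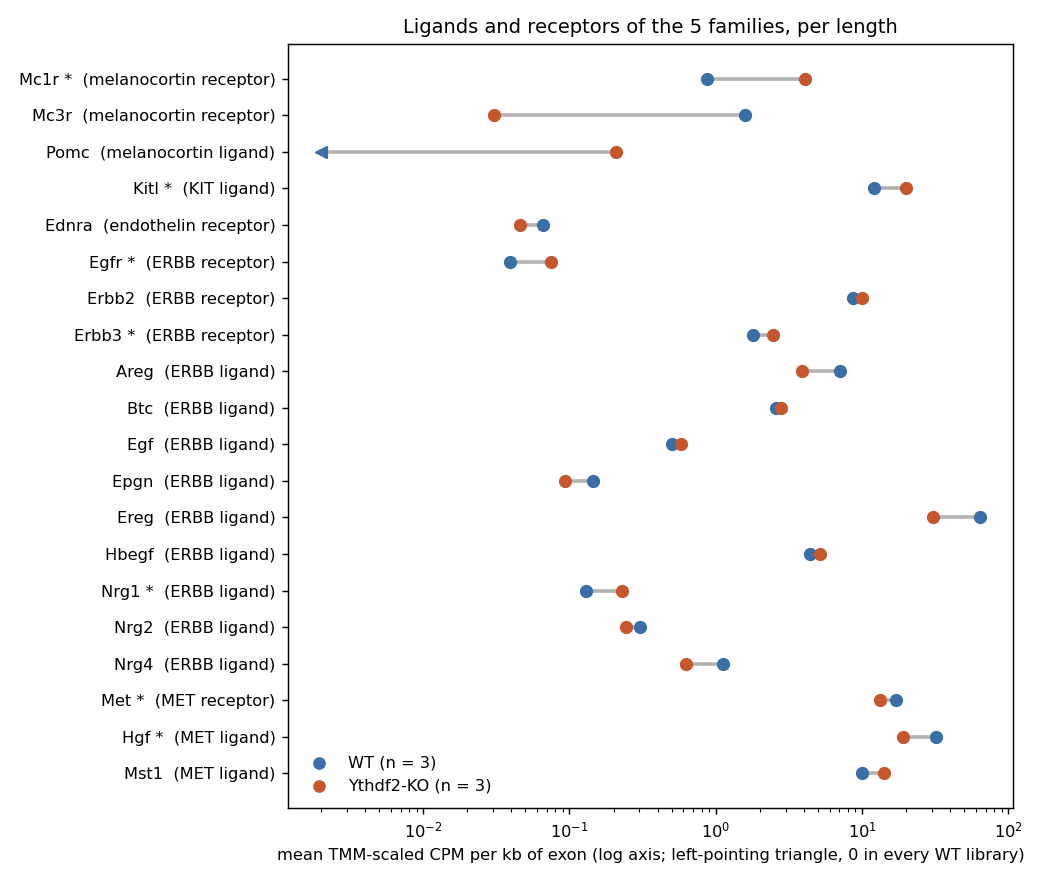
Mean TMM-scaled CPM per kilobase of exon (horizontal log axis) of the tested ligand and receptor genes in WT and Ythdf2-KO (points, n = 3 libraries each). Asterisks mark the 7 tested genes of the 10 described here. The left-pointing triangle marks Pomc, which had no count in WT. Ereg and Hgf are highest in WT, and Mc1r and Mc3r change places between the genotypes.

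Below the receptors, core genes of the RAS and ERK cascade, the shared route of KIT, ERBB and MET signals, were called in both directions. Of 24 tested, 7 were higher and 7 lower, beside 24.1% and 25.8% of all genes tested. The list's median log2 difference was -0.018, and 4 were lower with upper-quartile scaling. The only one of the 24 that differed by over 2-fold was Rasgrp3, which encodes an exchange factor that activates RAS in response to diacylglycerol: it rose 9.34-fold, from 1.88 ± 0.288 to 17.7 ± 0.769 CPM (SD, n = 3; edgeR adjusted p = 1.80e-30). Rasa2, which encodes a RAS GTPase-activating protein, and Rps6ka3, a gene for an ERK-activated kinase, rose 1.26- and 1.14-fold. The small GTPase gene Rras, the MEK1 gene Map2k1 and the scaffold gene Ksr1 fell 1.5-, 1.33- and 1.24-fold. Over the 6 lists, 120 different genes were tested, of which 35 were higher and 45 lower. Together, 66.7% of these genes were called, against 49.9% of all genes tested. A gene with more counts is called at a smaller difference, and the part of expression level in this share was not tested.

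**Figure D4:**
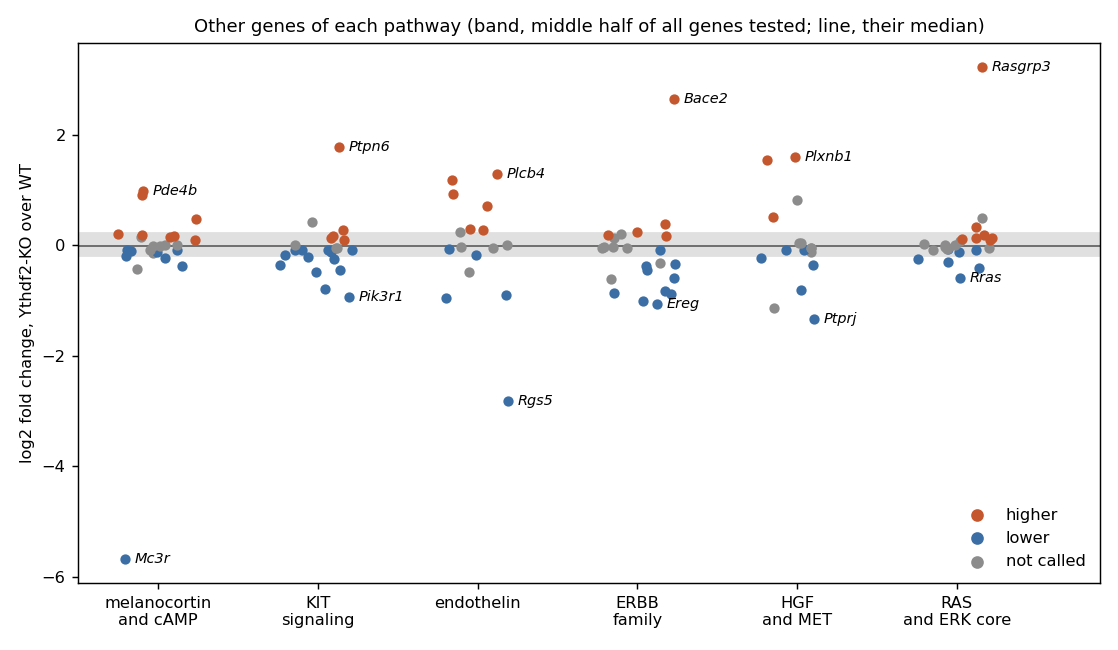
Log2 fold change of Ythdf2-KO over WT (vertical axis) for the tested genes of the 6 pathway lists (points, coloured by call), without the 10 genes described above and without Pomc. The line is the median and the band the interquartile range of all genes tested. The gene names mark the highest and lowest point of each list, such as Rasgrp3 at 3.22 and Mc3r at -5.67.

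Genes with a profile most like those of Mc1r, Egfr and Nrg1, the 3 members with the largest log2 fold changes, were found by the Euclidean distance over the 6 libraries of log2(CPM + 1), centred on each gene's WT mean. Nearest to Mc1r were Epha3 (an ephrin receptor gene), Ighm and Fos, at distances of 0.140, 0.147 and 0.156. Epha3 rose from 9.08 ± 0.154 to 37.7 ± 0.957 CPM and Fos from 26.1 ± 1.58 to 97.8 ± 2.44 CPM (SD, n = 3). Ighm rose from 0.247 to 3.68 CPM, or 15.0-fold, against 4.75-fold for Mc1r. Nearest to Egfr were Gramd1c, Clec10a and Slc35d2, at 0.0876, 0.112 and 0.129, and nearest to Nrg1 were Pmfbp1, Ccr10 and Arap2, at 0.150, 0.155 and 0.166. Gramd1c rose 4.77-fold, from 0.0684 to 0.336 CPM, against 1.89-fold for Egfr. With 6 libraries in 2 groups this likeness is mostly a like difference between the genotypes, and at low levels the added 1 compresses it.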

How the data were processed

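Polyadenylated RNA from 3 WT and 3 Ythdf2-KO libraries was read from both ends. The authors used fastp 0.23.2, HISAT2 2.2.1, featureCounts 2.0.6 and the build GRCm39, per the submitters' processing notes. The deposited values are whole counts per gene symbol, not normalized. Among counts of 1 to 10, 66.9% were even, against 49.98% above 1000, so both reads of a pair may have been counted. The sources used here do not give the counting settings for read pairs, strand or multiple alignments.

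Columns were joined to samples by the labels' descriptions. Genes were kept by filterByExpr and scaled by TMM. A quasi-likelihood model with robust dispersions (edgeR 4.0.16, R 4.3.3) compared the genotypes over all genes, after a test on simulated data. SEs are the absolute log2 fold change over the square root of F. Alternatives used RLE or upper-quartile factors, other filters, DESeq2 1.42.0, limma-voom 3.58.1, a replicate block, an adjusted p under 0.01, non-robust dispersions and each library left out. Exon lengths and overlaps came from GENCODE M21 (GRCm38), joined by symbol. Figures were drawn with matplotlib 3.10.9.

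The members and lists were chosen with earlier results of these data known. Named genes were the members, Ythdf2, other ligands and receptors of their families, up to 3 rises and 3 falls per list among called genes of at least 1 CPM, and 3 like genes for each of 3 members. Adam10, Adam17, Ece2, Pcsk5, Lrig2, Lrig3, Rnf41, Cbl, Cblb, Rhbdf2, Gnas and Rgs5 were chosen after their values were seen. So were Dcn, Col3a1, Hgfac, St14, Mrap and the markers named.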

Additional observations from a re-analysis of the deposited data

How the results depend on the processing

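Under the 15 alternatives, Mc1r, Kitl, Erbb3, Met and Hgf kept their direction and call wherever they were tested, with log2 fold changes of 2.21 to 2.32, 0.699 to 0.790, 0.379 to 0.507, -0.393 to -0.324 and -0.769 to -0.686. Nrg1 stayed called in 14 of 14, at 0.659 to 0.924. Egfr stayed called in 12 of 14 and did not pass at an adjusted p under 0.01 or without Ythdf2-KO replicate 2. A filter at a mean of 5 CPM removed Egfr and Nrg1 and left 3 members higher, against 5. It also left 3 endothelin genes higher, against 6, and 3 lower, against 5. Of those 5 lower genes, Rgs5 alone averaged under 5 CPM. Upper-quartile scaling left 4 melanocortin and cAMP genes lower, against 8, 7 KIT signaling genes, against 13, and 4 RAS and ERK core genes, against 7. With no filter on low counts, 5 melanocortin and cAMP and 8 KIT signaling genes were lower, and DESeq2 called 3 endothelin genes lower. The cause was not tested. Leaving out each library in turn gave 4 to 8 melanocortin and cAMP genes lower, 8 to 12 KIT signaling genes lower and 4 to 5 members higher. Deviations of same-numbered libraries correlated at 0.048, -0.063 and -0.097, and only those numbered 1 correlated best with each other. So few libraries cannot show whether those of the same number were handled together. With the replicate block, 4132 genes were higher and 4409 lower, and 5 and 2 members. At low counts, depth limits Egfr, Nrg1 and Pomc, and Kit, Ednrb and Edn1 could not be tested.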

Other observations

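Markers of Schwann and glial cells, which share the neural crest origin of melanocytes, were tested in the same fit. Of 7 tested, 6 were called higher and none lower, beside 24.1% higher among all genes tested. The smallest of these rises was that of Pmp22, 1.06-fold with overlapping libraries (edgeR adjusted p = 0.0393). Mbp, which encodes myelin basic protein, had 309, 358 and 363 counts in WT and 2207, 1988 and 2109 in Ythdf2-KO, and rose 5.82-fold to 31.6 ± 1.04 CPM (SD, n = 3). S100b and Cdh19 rose 4.19- and 3.73-fold, to 8.34 and 5.05 CPM. Egr2, at a log2 fold change of -0.15 ± 0.0790 (SE), did not pass the test. The defining gene Foxd3 had 0 counts in every library. These genes were named after their values were seen.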
